A study of Mus musculus with 39 samples.

Results

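The nuclear-encoded genes of the mitochondrial respiratory chain were followed in bulk melanoma tumours of C57BL/6 mice. The genes were chosen by name alone: a row of the count table was taken if its mouse symbol began with Ndufa, Ndufb, Ndufc, Ndufs, Ndufv, Uqcr, Sdha to Sdhd, Cox4i, Cox5, Cox6, Cox7, Cox8 or Atp5, and if its mean over the 39 libraries was at least 1 CPM (counts per 1000000 counts of the library). Of 39179 rows, 101 carried such a symbol without the marks of a predicted gene or pseudogene, and 94 of them reached that level. All 94 also passed the filter on low counts, so they stand among 15070 genes tested. A further 7 rows with pseudogene or predicted gene names were left out. Just inside the limit lay Ndufs5 at 1.10 and Cox6b2 at 1.27 CPM. The 7 below it were Cox4i2 at 0.62, Atp5g2 at 0.39, Cox6c2 at 0.24, Ndufs6b at 0.22, Cox7b2 and Cox8c at 0.02 each, and Ndufa11b, with a count in 1 library.

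Respiratory complexes I to IV pass electrons from NADH and succinate to oxygen. Complexes I, III and IV pump protons out of the mitochondrial matrix as they do so, and complex V, the ATP synthase, uses the return of those protons to make ATP. Complex II, which is also an enzyme of the TCA cycle, has only nuclear-encoded subunits, whereas the others are built from subunits of the nuclear and the mitochondrial genome together. Several complex IV subunits exist as a form found in most tissues and a form found in heart and skeletal muscle. In tumours the balance between respiration and glycolysis is of interest because tumour cells, macrophages and T cells share glucose and oxygen.

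All mice carried tumours labelled Braf-mutated melanoma, grown from cultured cells whose line name the labels do not give. From day 7 after injection they received vehicle (DMSO, PEG400 and water), a mix named EPAT that blocks EP2 and EP4, receptors for prostaglandin E2 (30 mpk in the labels' unit, bidaily), anti-PD-1 antibody at 200 µg a dose, or both agents together, called the combination here, for 2 or 5 days. Each of the 8 groups of treatment and day had 5 libraries, except anti-PD-1 day 2 with 4. The time-point labels give day 2 and day 5, while the extraction note speaks of tumours taken on day 4, and the day labels are used here. In 3 libraries the number in the title is one otherwise carried by libraries of the other day: anti-PD-1 day 5 replicate 3, EPAT day 5 replicate 5 and EPAT day 2 replicate 5. They were kept under their day labels. Counts at an unadjusted p without them are given beside some comparisons only, not for the treatments against vehicle on day 5. Members called without them are given for every comparison. No label says that libraries of a group came from different animals, so a p-value covers only how these samples vary, which may be technical.

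QuantSeq 3′ libraries were counted, in which a transcript gives 1 tag near its 3′ end, so CPM carries no length term. Levels of different genes are set side by side on that basis, as a description. Reads lost to near-identical copies limit this, and so may the GC content of the transcript end, which is described below. Total counts ran from 8385741 to 15558113 a library, so that genes near 1 CPM rest on few reads in a library. Defining melanocyte markers were at or near 0: Tyrp1 had no count in any library, which allows up to 0.00633 CPM over all libraries (3 counts, counting error only), and mean CPM was 0.0017 for Tyr, 0.014 for Mlana, 0.026 for Dct, 0.28 for Pmel and 0.32 for Sox10, with Mitf at 49.4. Markers of skeletal muscle varied widely, and combination day 5 replicate 1 stood apart from the other libraries in these genes, as described below.

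The 94 genes together took 0.796% to 1.29% of the counts of a library. By complex they were 39 subunits of complex I, 8 complex I assembly factors, 4 subunits and 4 assembly factors of complex II, 8 genes of complex III, 15 of complex IV and 16 of complex V. Ndufa4 and its relative Ndufa4l2 are counted in complex I here, although later work places Ndufa4 in complex IV. Median CPM was higher at each step of the chain, from 84.8 for complex I to 109 for complex II, 124 for complex III, 141 for complex IV and 172 for complex V, while the assembly factors, which help build the complexes and are not kept in them, had medians of 14.1 for complex I and 22 for complex II. The median over all genes tested was 17.7 CPM.

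Atp5g3, a gene for the membrane c subunit of the ATP synthase, was the most abundant member at 457 CPM, followed within complex V by Atp5b at 389 CPM, which encodes the catalytic beta subunit. In complex IV the highest were Cox7a2 at 387 CPM and Cox4i1 at 304 CPM, in complex III the hinge protein gene Uqcrh at 363 CPM and Uqcrq at 211 CPM, and in complex I Ndufa2 at 295 CPM and Ndufb8 at 161 CPM. The lowest were Ndufs5 in complex I at 1.10 CPM, Uqcrfs1, the Rieske iron-sulfur protein of complex III, at 53.0 CPM, Cox6b2, a testis form of a complex IV subunit, at 1.27 CPM, and Atp5l in complex V at 2.71 CPM. The 4 complex II subunits were uneven: the iron-sulfur subunit Sdhb had 199 CPM, the flavoprotein Sdha 165 CPM, and the membrane anchors Sdhc and Sdhd 54.0 and 5.29 CPM. Of the 3 genes for the c subunit, Atp5g3 had 457 CPM, Atp5g1 30.2 CPM and Atp5g2 0.39 CPM.

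**Figure D1:**
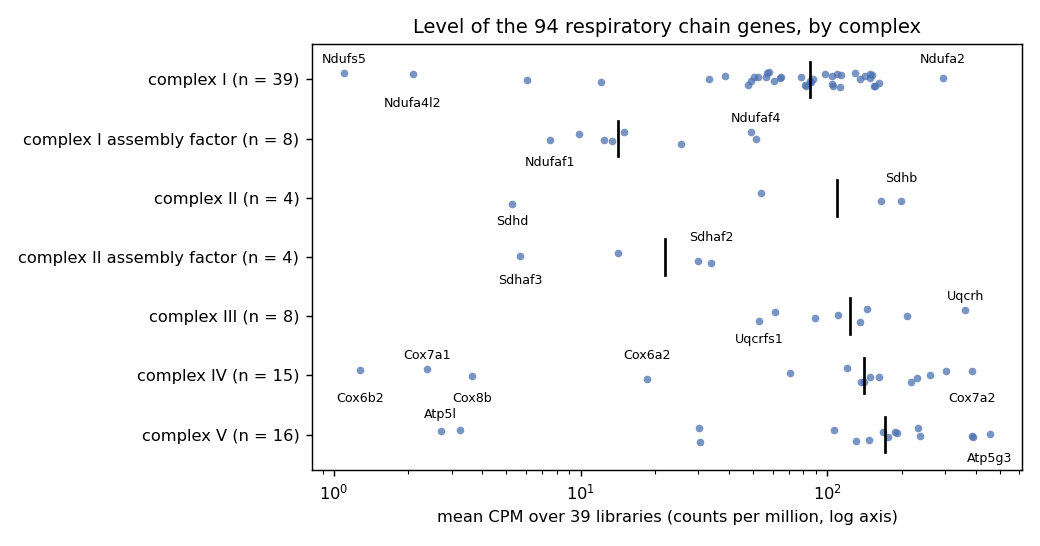
Mean CPM over the 39 libraries (horizontal log axis) of the 94 genes (points), in rows by complex, with the median of each row as a black bar. Most subunits lie near 100 CPM, while Ndufs5, Cox6b2, Ndufa4l2, Cox7a1, Atp5l, Atp5s and Cox8b lie at 1.10 to 3.62 CPM.

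Part of this order cannot be read as expression, because some members share their 3′ end with other genes and reads that map to several places may be lost or split. In the last 300 bases of the annotated transcript (GENCODE vM21, build GRCm38), the share of 50-base words also present in transcripts of other genes was 100% for Ndufb4c, 99.2% for Cox7c, 98.4% for the excluded Atp5g2, 70.1% for Atp5l, 54.6% for Ndufs5, 53.0% for Ndufs3, 40.6% for Uqcrb and 38.3% for Atp5h and Cox6c. Levels of these genes are uncertain, and so, to a lesser degree, are those of others such as Ndufb8 (31.1%) and Atp5g1 (20.3%). No word of the last 300 bases of Sdhd, Cox6a2, Cox8b, Cox7a1, Cox6b2, Ndufa4l2, Atp5a1, Atp5b or Uqcrfs1 was shared.

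Within groups the members were steadier than most genes. The standard deviation of log2 CPM between libraries of a group had a median of 0.273 over the members and 0.384 over all genes tested. The 2 sets were not matched for level, with median CPM of 88.2 and 17.7. Exceptions among the members were the muscle forms Cox8b (1.95) and Cox6a2 (1.55), Ndufa4l2 (0.93), Cox7a1 (0.88), Ndufs5 (0.86) and Sdhd (0.78). By role the median of this SD was lowest in complex III at 0.221 and highest in complex II at 0.356, which has only 4 genes.

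The main question was whether blocking EP2 and EP4, blocking PD-1, or both, moved the respiratory chain genes of the tumour. No member passed an adjusted p of 0.05 (edgeR quasi-likelihood test, Benjamini-Hochberg adjustment over all 15070 genes) in any of 15 comparisons. With this rule the share of all genes called was 0% in 12 of the 15 comparisons, 0.0265% (4 genes) in combination against vehicle on day 5, 0.0199% (3 genes) in combination against anti-PD-1 on day 5 and 0.0133% (2 genes) in the EPAT effect averaged over both anti-PD-1 states on day 5. Since few genes of any kind were called, the counts at an unadjusted p of 0.05 are given below beside the share of all genes at that level. These counts are descriptions and no member is claimed from them. In bulk tumour, fewer cells of a type and less RNA per cell cannot be told apart.

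On day 2, 3 of the 94 members lay at an unadjusted p under 0.05 for anti-PD-1 against vehicle, or 3.19%, beside 7.12% of all genes, with a median log2 fold change of -0.05 over the members and -0.01 over all genes. For EPAT the count was 2 members, beside 6.23% of all genes, with a member median of 0.05. For the combination it was 6 members, or 6.38%, beside 10.2% of all genes, with a member median of -0.04. The members' shares lay below those of all genes in each of the 3. The 95% intervals of the fold change lay within 1.5-fold in either direction for 60, 73 and 69 of the 94 genes, and within 2-fold for 82, 85 and 87, so that for most genes a 2-fold change lay outside the interval. Without the 3 libraries whose title number goes with the other day, the count for EPAT was 1 (6.12% of all genes) and that for the combination 3 (9.62%).

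On day 5 anti-PD-1 against vehicle had 4 members at that level, beside 7.15% of all genes, and EPAT against vehicle had 1, beside 1.7% of all genes. Member medians were -0.06 for both. The combination against vehicle had 12 members, or 12.8%, beside 16.5% of all genes. Of these 12, 11 were lower, beside 9.28% of all genes that were lower at this level. The member median was -0.10, with 58 of 94 genes lower, against -0.01 over all genes. Intervals lay within 2-fold for 87, 86 and 85 genes in the 3 comparisons.

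The combination was also set against each single treatment, which shares the combination libraries with the comparisons above. Against anti-PD-1 on day 2, 5 members reached an unadjusted p under 0.05, beside 4.35% of all genes, and on day 5, 6 members, beside 6.31%. Against EPAT on day 2 there were 11 members, beside 7.36% of all genes, of which 10 were lower, beside 3.39% of all genes lower. On day 5 there were again 11, beside 12.7%, of which 10 were lower, beside 7.28%. Member medians were 0.01 and -0.01 against anti-PD-1, and -0.11 and -0.03 against EPAT, on day 2 and day 5. On day 2, 71 of the 94 members were lower in the combination than with EPAT alone and 23 were higher, while 51.5% of all genes were higher. Without the 3 libraries whose title number goes with the other day, the day 2 counts were 3 against anti-PD-1 (3.84% of all genes) and 6 against EPAT (5.71%), of which 5 were lower, and the day 5 count against anti-PD-1 was 4 (4.90%).

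The EPAT effect averaged over the libraries with and without anti-PD-1 had 0 members at an unadjusted p under 0.05 on day 2, beside 3.46% of all genes, and 1 on day 5, beside 4.15%. This was the most precise comparison: 89 and 90 of the 94 intervals lay within 2-fold, and 86 and 82 within 1.5-fold. The interaction term of both agents had 9 members on day 2, beside 7.28% of all genes, and 6 on day 5, beside 3.1%, and was the least precise, with 27 and 29 intervals within 1.5-fold. Without those 3 libraries the interaction on day 5 had 2 members, beside 1.92% of all genes. In no comparison was a member called without them. Between vehicle tumours of day 5 and day 2, 3 members lay at this level, beside 5.49% of all genes, with a member median of 0.01.

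**Figure D2:**
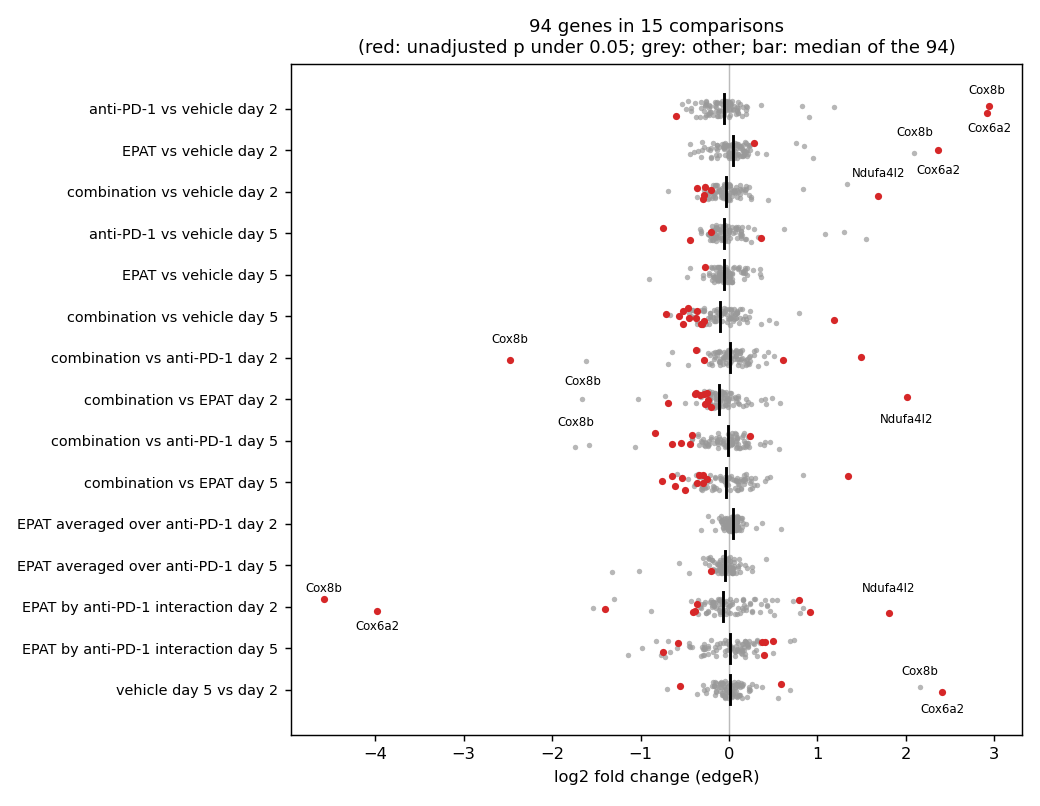
Log2 fold changes (horizontal axis) of the 94 genes in the 15 comparisons (rows), with genes at an unadjusted p under 0.05 in red, the others in grey and the median of the 94 as a black bar. The bars lie between -0.108 and 0.047, and the points far from 0 are mostly Cox6a2, Cox8b and Ndufa4l2.

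The smallest edgeR adjusted p of any member in the 15 comparisons was that of Atp5a1 (chr18:77773729-77782869, + strand). This gene encodes the alpha subunit of the catalytic head of the ATP synthase. On day 5 it had 365, 412, 442, 452 and 457 CPM in the 5 vehicle libraries and 304, 316, 333, 353 and 356 CPM in the 5 combination libraries. The groups did not overlap. This is a description only, because the share of all genes that separate in this way is not given. The log2 fold change was -0.36 ± 0.09 (SE), with an interval of -0.55 to -0.17 and an edgeR adjusted p of 0.170, so it did not pass. With DESeq2 it did, at -0.35 with an adjusted p of 0.0311, and also in edgeR without vehicle day 5 replicate 3, the lowest vehicle library, at -0.41 with an adjusted p of 0.0401. Over all 21 alternatives the adjusted p ran from 0.0311 to 0.414. Anti-PD-1 tumours of day 5 had 369 ± 24.3 (SD, n = 5) and EPAT tumours 393 ± 46.8 CPM (SD, n = 5), between the vehicle mean of 426 ± 37.9 and the combination mean of 332 ± 22.7. On day 2 the means were 413 in vehicle, 372 in anti-PD-1, 414 in EPAT and 359 in the combination.

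Its partner Atp5b, the beta subunit, had 335, 383, 438, 458 and 519 CPM in vehicle and 168, 292, 304, 351 and 366 CPM in the combination on day 5. The ranges met between 335 and 366 CPM, and the lowest value belonged to replicate 1. The log2 fold change was -0.52 ± 0.16 (SE), edgeR adjusted p = 0.179, and -0.37 without that library. Uqcrfs1 had 43.8, 45.5, 53.0, 61.4 and 78.1 CPM in vehicle and 19.5, 30.0, 39.5, 48.0 and 52.7 CPM in the combination, again with overlap and with replicate 1 lowest. Its log2 fold change was -0.57 ± 0.19 (SE), edgeR adjusted p = 0.194, and -0.40 without replicate 1. Cox6b2 was the member of the 12 that was higher, with 0.413 to 1.44 CPM in vehicle (median 1.00) and 1.21 to 3.04 CPM in the combination (median 2.26), a log2 fold change of 1.19 ± 0.43 (SE) with an edgeR adjusted p of 0.200. These ranges overlapped too, and at this level a library holds few reads. The other 8 were lower by 0.28 to 0.71 on the log2 scale: the complex I genes Ndufv2, Ndufb4, Ndufb5, Ndufb4c and Ndufc2, Uqcrb of complex III, Sdhc of complex II and Cox7b of complex IV. Ndufb4c and Uqcrb are among the genes with shared 3′ ends.

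**Figure D3:**
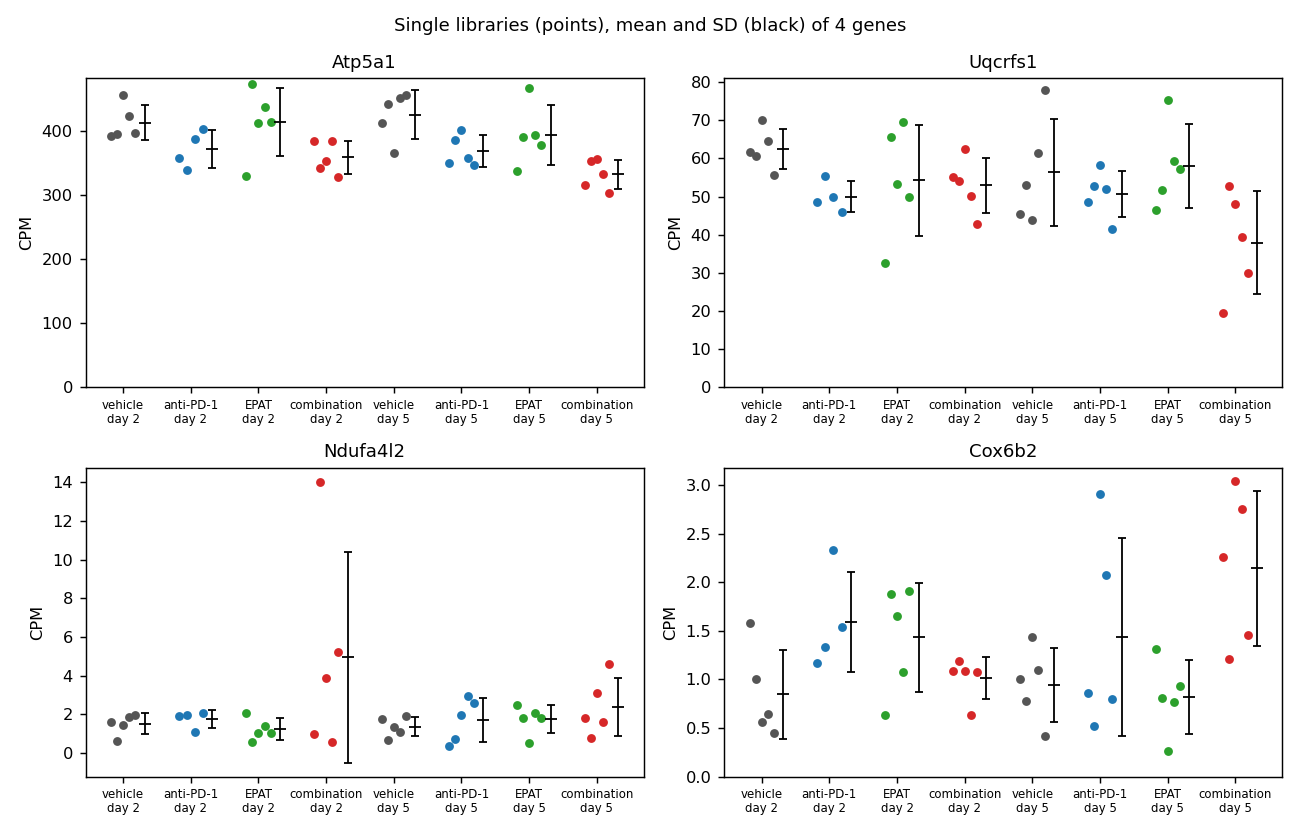
CPM (vertical axes) of Atp5a1, Uqcrfs1, Ndufa4l2 and Cox6b2 in single libraries (points) of the 8 groups, with the mean and SD in black. The combination day 5 libraries of Atp5a1 lie under the vehicle day 5 libraries, and 1 combination day 2 library of Ndufa4l2 reaches 14 CPM.

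The counts for the combination on day 5 leaned on replicate 1. Without it, the members at an unadjusted p under 0.05 went from 12 to 6 against vehicle (13.2% of all genes), from 6 to 1 against anti-PD-1 (3.15%) and from 11 to 5 against EPAT (8.86%), and the genes called in all against vehicle went from 4 to 0. The direction against vehicle did not lean on it: 68 of the 94 members were lower without it and 58 with it. The share of all genes that were lower without it is not given. The member medians were -0.11 and -0.10. Leaving out vehicle day 5 replicate 3 instead moved the count of members against vehicle the other way, to 18 (24.1% of all genes), with 205 genes called in all. In replicate 1 Ndufa4 had 3.12 CPM where the other 4 libraries of the group had 19.7 to 39.1. Ndufa1 had 4.09 against 29.5 to 60.3 CPM, Cox7c 27.6 against 80.1 to 144 CPM, and Atp5s, a factor linked to complex V, 0.645 against 1.95 to 3.27 CPM. These are the lowest values of the 39 libraries for each of the 4 genes.

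Members that were low in this library had transcript ends of low GC content. This was found after the data were seen, by looking at the members' variation between libraries beside transcript length, library size, mitochondrial share and GC content, and no test is attached. The GC content of the last 300 transcript bases ran from 29.3% (Uqcrfs1) to 59.7% over the members. Split at the member median of 45.3%, the 45 genes below it lay at a median of -0.59 log2 units from their own means in replicate 1, and the 49 others at 0.32. The difference, -0.90, compares with -0.27 to 0.30 in the other libraries. Mitochondrial ribosome genes split at the same GC value differed by -0.44 in replicate 1, and all other genes by -0.39. In combination against vehicle on day 5 the low-GC members had a median log2 fold change of -0.23 and the high-GC members 0.01, and without replicate 1 the medians were -0.15 and -0.04. Of the 11 lower members above, 8 were in the low-GC group. Against EPAT on day 5 the lower members at an unadjusted p under 0.05 were 10 low-GC and 0 high-GC genes. Medians over all low-GC and high-GC members there were -0.22 and 0.09. Against anti-PD-1 on day 5 they were -0.14 and 0.05, and the lower members 5 and 0. Without replicate 1 the medians were -0.11 and 0.02 against EPAT and -0.06 and -0.01 against anti-PD-1. Against EPAT on day 2 the lower members were 6 low-GC and 4 high-GC genes. The part of GC content in these differences was not tested. An offset for GC content fitted in each library, also chosen after seeing the data, left 13 members at an unadjusted p under 0.05 against vehicle, beside 17.03% of all genes, with 0 members and 4 genes in all called. With that offset the low-GC and high-GC medians were -0.22 and -0.06, and 66 of the 94 members were lower.

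**Figure D4:**
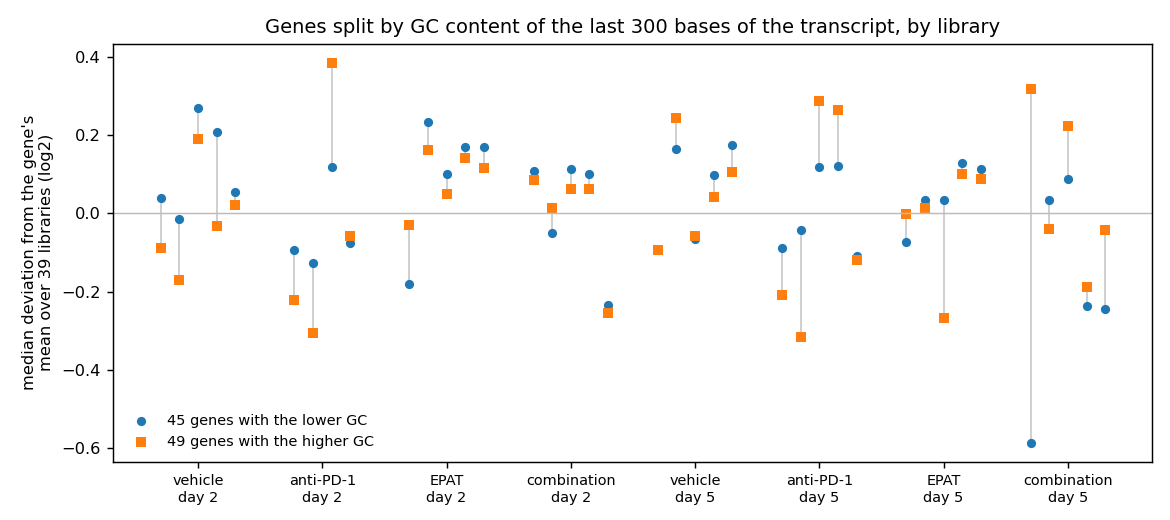
Median deviation of log2 CPM from each gene's mean over 39 libraries (vertical axis), for the 45 genes with the lower GC content in the last 300 transcript bases (blue) and the 49 with the higher (orange), in each library of the 8 groups. In 1 combination day 5 library the medians are -0.59 and 0.32, farther apart than in any other library.

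The widest differences between libraries were in the muscle forms of complex IV. Cox6a2 (chr7:128205435-128206387, - strand), the heart and skeletal muscle form of subunit VIa, ran from 0.754 to 219 CPM, Cox8b (chr7:140898945-140900446, - strand), the muscle form of subunit VIII, from 0 to 39.4 CPM, and Cox7a1 (chr7:30184144-30186078, + strand), the muscle form of subunit VIIa, from 0.50 to 15.2 CPM. Their partners found in most tissues were far steadier: Cox6a1 ran from 194 to 354, Cox8a from 63.7 to 192 and Cox7a2 from 308 to 515 CPM. Cox6a2 made up a median of 3.81% of Cox6a tags, and 45.3% in anti-PD-1 day 5 replicate 5. For Cox8b beside Cox8a the median share was 1.62% and the highest 17.6%, and for Cox7a1 beside Cox7a2 0.451% and 4.50%. In the 4 libraries with no Cox8b count, 3 counts allow a level of up to 0.27 CPM.

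The promoter windows of 2 such pairs are printed because the members of a pair behaved so differently. Each is 300 bases of RefSeq sequence (GRCm38.p6), from 250 bases before the start to 50 after it, with matches to any of 5 motifs in capitals. The core of the NRF1 site was searched as CGCANGCG. For ETS family factors the letters were CCGGAAG. For YY1, a further regulator of mitochondrial genes, they were AAGATGGC. The E-box read by myogenic factors was searched as CAGCTG. The core of the TATA box was searched as TATAAA. Both strands were searched. The ETS and YY1 motifs can overlap by 3 bases.
Cox8b (chr7:140900397-140900696, - strand): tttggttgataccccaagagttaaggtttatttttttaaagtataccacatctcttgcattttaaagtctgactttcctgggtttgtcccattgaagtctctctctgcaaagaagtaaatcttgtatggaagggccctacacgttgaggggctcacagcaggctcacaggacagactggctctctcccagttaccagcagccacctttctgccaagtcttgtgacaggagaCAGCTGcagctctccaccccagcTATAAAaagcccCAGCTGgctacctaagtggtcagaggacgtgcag
Cox8a (chr19:7217567-7217866, - strand): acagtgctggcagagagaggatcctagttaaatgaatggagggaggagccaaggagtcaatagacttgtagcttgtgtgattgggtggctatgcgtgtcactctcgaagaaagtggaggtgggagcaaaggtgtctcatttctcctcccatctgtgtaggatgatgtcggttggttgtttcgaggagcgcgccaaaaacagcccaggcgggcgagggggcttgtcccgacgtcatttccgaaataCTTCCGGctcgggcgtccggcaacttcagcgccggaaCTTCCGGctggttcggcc
Cox7a1 (chr7:30183921-30184220, + strand): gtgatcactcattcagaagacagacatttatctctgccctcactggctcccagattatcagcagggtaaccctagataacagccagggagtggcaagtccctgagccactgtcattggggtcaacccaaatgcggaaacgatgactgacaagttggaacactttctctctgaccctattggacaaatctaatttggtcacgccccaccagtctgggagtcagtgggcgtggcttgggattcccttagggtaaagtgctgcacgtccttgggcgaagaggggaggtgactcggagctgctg
Cox7a2 (chr9:79759804-79760103, - strand): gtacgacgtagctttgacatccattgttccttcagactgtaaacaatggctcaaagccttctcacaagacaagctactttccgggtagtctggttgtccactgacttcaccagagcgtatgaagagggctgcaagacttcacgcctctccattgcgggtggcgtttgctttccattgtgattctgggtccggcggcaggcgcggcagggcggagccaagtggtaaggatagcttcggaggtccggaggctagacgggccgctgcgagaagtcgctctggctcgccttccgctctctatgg

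The window of Cox8b held 2 E-boxes and a TATA box and 2 CpG dinucleotides, and that of Cox8a held 2 ETS motifs and 19 CpG. Neither the Cox7a1 nor the Cox7a2 window matched any of the 5 motifs, and they held 7 and 20 CpG. Windows were found for 76 of the 94 members, 81 windows in all. Among these 39.5% held the NRF1 core, 25.9% the ETS motif, 12.3% the YY1 motif, 7.41% the E-box and 9.88% the TATA box. Among all 32851 windows of the same length the shares were 8.21%, 8.86%, 2.75%, 16.3% and 13.6%. Member windows held a median of 20 CpG, all windows 7. A match describes the letters only and is no evidence of binding.

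Cox6a2 and Cox8b were compared with a skeletal muscle score, the mean log2 CPM of 12 muscle fibre markers, none of them a member. Over all 39 libraries Pearson r of log2 CPM with the score was 0.94 for Cox6a2, 0.88 for Cox8b and 0.50 for Cox7a1. With a score of slow or cardiac muscle markers r was 0.87, 0.84 and 0.66, so Cox7a1 followed that score more closely. The skeletal muscle score was above 4 in 30 libraries, under 1 in 7 and between in 2. Relations are therefore tested within these clusters, whose bounds were set after seeing the data. In the 30 libraries Pearson r of log2 CPM with the score was 0.98 for Cox6a2, 0.95 for Cox8b and 0.79 for Cox7a1, and Spearman rho was 0.97, 0.94 and 0.67. The permutation p of each r was 1e-05, the smallest that 100000 permutations can give, or 4.67e-05 adjusted over 14 relations, and adjusted p-values of rho were 7e-05, 7e-05 and 0.00042. Without the 2 libraries farthest from the median score r was 0.97, 0.93 and 0.65. The partners showed no such relation in these libraries, with r of 0.24 for Cox6a1, 0.06 for Cox8a and -0.11 for Cox7a2 (adjusted permutation p of 0.397, 0.796 and 0.728). In the 7 libraries under 1, where the muscle forms are near their lowest, r was -0.57, 0.51 and -0.52 for Cox6a2, Cox8b and Cox7a1 (adjusted exact permutation p of 0.397, 0.400 and 0.397).

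**Figure D5:**
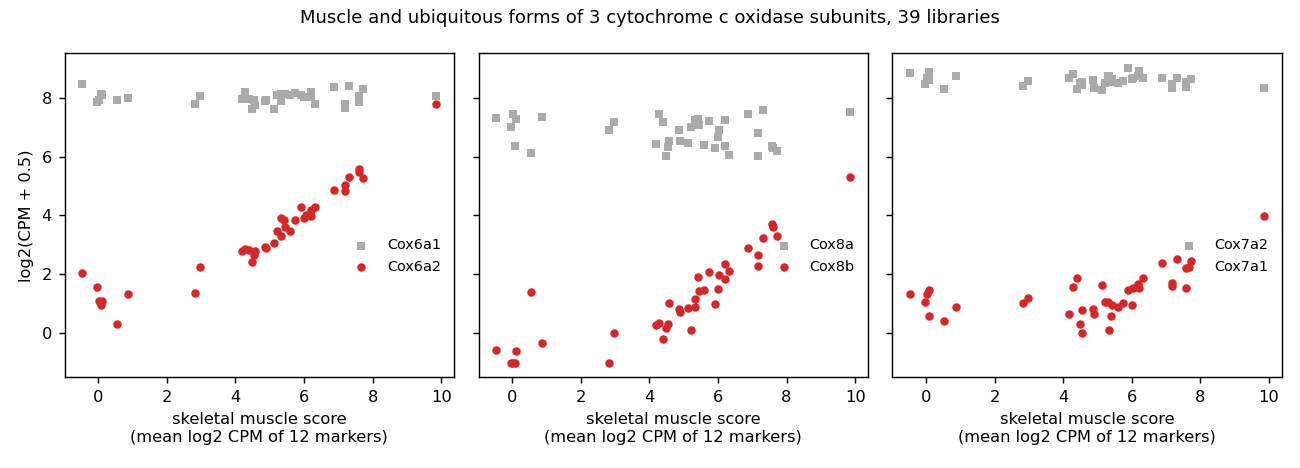
log2(CPM + 0.5) (vertical axes) of the muscle form (red) and the widespread form (grey) of 3 complex IV subunits against the skeletal muscle score (horizontal axes, mean log2 CPM of 12 markers) in 39 libraries. Among the libraries with a score above 4, Cox6a2 and Cox8b are higher where the score is higher (r of 0.98 and 0.95), and the widespread forms are not.

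The genes whose log2 CPM was most correlated with Cox6a2 over the 39 libraries were Tnni2 (r = 0.97), Pgam2 (0.97) and Apobec2 (0.96), a fast-muscle troponin, the muscle form of phosphoglycerate mutase and a muscle-enriched member of a deaminase family. Tnni2 is also 1 of the 12 markers. They were picked for this likeness, so the values are a description.

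Large but unsupported fold changes of these muscle forms came together with differences in the muscle markers. Cox6a2 had 0.754, 1.61, 1.62, 5.87 and 7.12 CPM in vehicle on day 2, and 3.66, 6.35, 43.6 and 47.6 CPM with anti-PD-1. The groups overlapped, and 2 of the 4 anti-PD-1 libraries carried the difference. The log2 fold change was 2.94 ± 1.02 (SE), edgeR adjusted p = 0.563. Cox8b, at 0 to 2.11 CPM in vehicle and 0.166 to 12.6 CPM with anti-PD-1, differed by 2.92 ± 1.25 (SE), adjusted p = 0.639. In EPAT tumours of day 2 Cox6a2 had 1.44 to 37.9 CPM, a log2 fold change of 2.36 ± 0.98 (SE), adjusted p = 0.753, and in vehicle tumours of day 5, 9.44 to 28 CPM, 2.41 ± 0.98 (SE) above day 2, adjusted p = 0.857. With the muscle score as a covariate the 3 Cox6a2 values became 0.95, 0.23 and 0.21, and that of Cox8b -1.11. Both genes follow this score closely, so a shift with the covariate could be foreseen. The part of muscle content in the fold changes was not tested. All 12 muscle markers were higher than in vehicle of day 2 in each of these 3 comparisons, none called, with medians of 3.30, 2.99 and 2.86 on the log2 scale. The muscle score ran from 0.03 to 4.87 in vehicle of day 2, -0.46 to 7.59 with anti-PD-1, 0.08 to 7.71 with EPAT and 5.32 to 7.18 in vehicle of day 5. The interaction of both treatments on day 2 was -3.98 ± 1.37 (SE) for Cox6a2, adjusted p = 0.497, and -4.58 ± 1.70 (SE) for Cox8b, adjusted p = 0.544, and with the covariate -1.02 and 0.94.

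Ndufa4l2 (chr10:127514967-127517154, + strand), a relative of Ndufa4 known as a target of hypoxia-inducible factor, was the other member that spread widely. On day 2 it had 0.624, 1.45, 1.58, 1.88 and 1.98 CPM in vehicle and 0.554, 0.998, 3.90, 5.22 and 14 CPM in the combination. The highest 3 combination libraries exceeded every vehicle library and the other 2 did not. The log2 fold change was 1.69 ± 0.58 (SE), edgeR adjusted p = 0.260. Against EPAT it was 2.01 ± 0.59 (SE), adjusted p = 0.431, and against anti-PD-1 1.49 ± 0.62 (SE), adjusted p = 0.925, in comparisons that share the combination libraries. Without the highest library, replicate 2, the values were 0.83 against vehicle, 1.13 against EPAT and 0.61 against anti-PD-1, and limma-voom with quality weights turned the value against vehicle to -0.27. On day 5 the combination had 0.781 to 4.58 CPM (median 1.83) and vehicle 0.678 to 1.89 CPM (median 1.34). Ndufa4 itself, a subunit placed in complex IV in later work, had 35.2 ± 8.56 CPM in vehicle and 31.1 ± 8.13 CPM in the combination on day 2 (SD, n = 5 each).

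Levels of 23 hypoxia and glycolysis genes were set beside it on day 2: all 23 were higher in the combination than in vehicle, none called, 13 at an unadjusted p under 0.05 (10.2% of all genes), with a median log2 fold change of 0.67. On day 5, without combination day 5 replicate 1, the list went the other way: 17 of the 23 were lower than in vehicle, with a median of -0.16. At an unadjusted p under 0.05, 3 were lower and 1 higher there, beside 13.2% of all genes. On day 2 the score of the 23 genes was 7.27 in replicate 2 of the combination, and 5.44 to 6.15 in the other 4 libraries. List values without that replicate are not given. Pearson r of Ndufa4l2 with this score over 39 libraries was 0.44 (adjusted permutation p = 0.0326), but Spearman rho was 0.12 (adjusted permutation p = 0.816) and r without the 2 libraries farthest from the median score was 0.05, so the relation rested on those 2. The genes most like Ndufa4l2 over the libraries, again picked for likeness, were Gpc3 (r = 0.73), Tnxb (0.72) and F13a1 (0.72).

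The remaining smallest p-values were spread over the complexes. In combination against vehicle on day 2, the complex I subunit Ndufs1, which carries iron-sulfur clusters, had 71.5 to 102 CPM in vehicle and 71.1 to 79.3 CPM in the combination (log2 fold change -0.28 ± 0.11 SE, adjusted p = 0.343), and Uqcrc1, a core protein of complex III, 106 to 120 and 79.5 to 107 CPM (-0.27 ± 0.12 SE, adjusted p = 0.433). Uqcrc1 was also lower in the combination than with EPAT alone on day 2, at -0.37 ± 0.12 (SE), where EPAT tumours had 111 to 134 CPM. Those groups did not overlap, though the edgeR adjusted p was 0.472 and the share of all genes without overlap is not given. In EPAT against vehicle on day 5 its difference was -0.28 ± 0.12 (SE), adjusted p = 1.00. Ndufb4, an accessory subunit of complex I, was lower with anti-PD-1 on day 5 by 0.44 on the log2 scale, adjusted p = 0.645. Atp5l, with a shared 3′ end, had 1.12 to 2.89 CPM in vehicle on day 2 and 2.58 to 4.19 CPM on day 5 (0.58 ± 0.22 SE, adjusted p = 0.857). None of these passed.

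The other members with the smallest p-values in each comparison did not pass either. With anti-PD-1 on day 2 Atp5s was lower, at -0.59 ± 0.28 (SE), and in vehicle of day 5 against day 2 it was -0.56 ± 0.26 (SE). With EPAT on day 2 the complex I subunits Ndufs6 and Ndufs4 differed by 0.28 ± 0.14 and 0.21 ± 0.12 (SE). With anti-PD-1 on day 5 Ndufa3 differed by 0.37 and Ndufb4c, whose 3′ end is wholly shared, by -0.74. With EPAT on day 5 the complex V genes Atp5k and Atp5d differed by -0.29 and -0.21. In the combination against EPAT alone, Ndufa12 differed by -0.33 on day 2, and on day 5 Cox6b2 by 1.35, Uqcrfs1 by -0.61 and Atp5s by -0.76. Against anti-PD-1 alone, Uqcrc1 differed by -0.28 and Ndufb3 by 0.61 on day 2, and on day 5 Atp5j by -0.64, Ndufa4 by -0.84 and the complex II assembly factor Sdhaf3 by -0.44. Without combination day 5 replicate 1 the last 3 were -0.42, -0.55 and -0.34.

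In the EPAT effect averaged over both anti-PD-1 states, the assembly factor Ndufaf1 differed by -0.24, Ndufa4l2 by 0.58 and Ndufs1 by -0.11 on day 2, and Atp5d by -0.20, Atp5b by -0.23 and Atp5a1 by -0.13 on day 5. The value of Ndufa4l2 was 0.15 without combination day 2 replicate 2 and -0.56 with limma-voom. The interaction was -0.41 ± 0.16 (SE) for Ndufc1, a small complex I subunit, on day 2 and 0.41 ± 0.16 (SE) on day 5, opposite in sign, and on day 5 it was 0.37 for Uqcrc1 and -0.58 for Sdhaf3. Over the values of this paragraph and the one before, the edgeR adjusted p-values lay between 0.282 and 1.00.

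By complex, combination against vehicle on day 5 gave medians of -0.08 for complex I, 0.01 for complex II, -0.13 for complex III, 0.00 for complex IV and -0.22 for complex V, where 12 of 16 genes were lower. The 4 complex II subunits showed no common direction: Sdha had 167 ± 11.9 CPM in vehicle and 164 ± 4.00 in the combination, Sdhb 203 ± 31 and 220 ± 61.7, Sdhc 59.6 ± 15.3 and 41.5 ± 18.5, and Sdhd 4.74 ± 1.34 and 4.89 ± 1.92 (SD, n = 5 each). Of the 4, Sdhc alone had an unadjusted p under 0.05, and its log2 fold change went from -0.52 to -0.30 without replicate 1.

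Genes around the chain were compared as lists by function, and no gene of these lists was called in any of the 15 comparisons. In combination against vehicle on day 5, 12 of 13 TCA cycle genes were lower, 4 at an unadjusted p under 0.05, with a median of -0.19, beside 16.5% of all genes at that level and 9.28% lower. Without combination day 5 replicate 1, 10 of the 13 were lower, 3 at that level, with a median of -0.15, beside 6.06% of all genes lower. Of 14 electron carriers and regulators, such as cytochrome c and the ADP/ATP carriers, 9 were lower, with a median of -0.12. Of 16 regulators of mitochondrial biogenesis 10 were lower (median -0.17), of 35 further assembly factors 19 (median -0.04) and of 77 mitochondrial ribosome genes 52 (median -0.09). The 8 mitochondrially encoded genes measured had a median of -0.03, with 5 lower. Without replicate 1 the median was -0.09 for the biogenesis regulators and turned to 0.13 for the mitochondrially encoded genes, with 2 of 8 lower. Cytosolic ribosome genes, outside the mitochondrion, had the lowest median: 82 of 92 were lower, with a median of -0.29. The respiratory chain median of -0.10 lies within the range of these lists, and the median of all genes tested was -0.01.

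Markers of other cells were also compared between these groups, and none was called. All 8 macrophage markers were higher in the combination on day 5 (median 0.59), with scores of 7.92 to 8.89 against 7.19 to 8.21 in vehicle. All 9 T cell markers were higher (median 1.09), with scores of 3.23 to 4.84 against 2.49 to 3.86, and all 8 adipocyte markers were lower (median -2.20). Without combination day 5 replicate 1 the medians of these lists were 0.60, 1.17 and -2.27, in that order. Other lists differed too, and are given without that library. The median was 4.32 for 5 keratinocyte markers, with 1 lower and 3 higher at an unadjusted p under 0.05, beside 13.2% of all genes. Medians were 0.52 for 7 fibroblast markers, 0.30 for 6 endothelial markers and 1.17 for 2 melanocyte lineage markers. They were -0.27 for 12 skeletal muscle, -0.41 for 8 slow or cardiac muscle, -0.28 for 5 lung epithelium and -0.16 for 4 B and plasma cell markers. The part of any of these cell types in the lower values of complex V and TCA cycle genes was not tested.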

How the data were processed

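RNA of bulk tumours was sequenced as QuantSeq 3′ libraries. The deposited table holds whole-number read counts per gene for 39 libraries. The submitters' processing notes name bcl2fastq, STAR, featureCounts, limma and the builds GRCm38 and mm10, without versions. A second deposited table, in which the authors gave log2 CPM values for 16095 genes, matched log2 CPM recomputed from the counts to within 5e-09 and was used only for an alternative test. All 39 libraries were used.

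The main test was edgeR 4.0.16 (R 4.3.3), quasi-likelihood, with TMM scaling, a filter at a minimum count of 10, 8 group means, 31 residual degrees of freedom and Benjamini-Hochberg adjustment over 15070 genes at 0.05. It was tested on simulated data. CPM of single libraries use TMM-scaled library sizes, and the limit of 1 mean CPM uses column totals. Alternatives were DESeq2 1.42.0, limma 3.58.1 (trend and voom), DESeq2 size factors or library totals as scaling, no filter on low counts, a fit of only the groups compared, a replicate block, a muscle covariate, each library left out, and, chosen after seeing the data, a GC offset and a fit without the 3 libraries whose title number goes with the other day. The split by GC content, the interval bounds of 1.5-fold and 2-fold and the score clusters were also chosen after seeing the data. No replicate pair differed by as little as sampling noise: the lowest chi-square per gene was 10.1.

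The genes and lists were chosen with earlier results of these data known. Named genes are those passing in a comparison or, where none passes, the 3 with the smallest p, the 2 highest and the lowest of each complex, the isoform genes, complex II, and those next to the limit. Other single genes, including Ndufa1, Cox7c and the 12 in combination against vehicle on day 5, were named after their values were seen. Gene positions and transcript ends are from GENCODE vM21 (GRCm38), promoters from RefSeq.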

Additional observations from a re-analysis of the deposited data

Results flagged for a closer look

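Of 88 sets of libraries (11 measures in 8 groups), 11 held a library whose gap to the nearest other relative to the group's range exceeded Dixon's 95% critical value. For independent, normally distributed values chance gives about 1 in 20. Single genes were taken as CPM without a log scale and some measures are related, so that rate does not apply here and the list is a description. Anti-PD-1 day 5 replicate 5 stood apart in all 3 muscle forms, with Cox6a2 at 219 CPM (next 28.9), Cox8b at 39.4 CPM (next 7.01) and Cox7a1 at 15.2 CPM (next 4.70), and it had the highest skeletal muscle score, 9.85. Combination day 5 replicate 3 had Cox8b at 8.95 CPM (next 2.28).

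The difference between low-GC and high-GC members was -0.90 log2 units in combination day 5 replicate 1 (next -0.20), -0.15 in EPAT day 2 replicate 1 (next 0.03), 0.30 in EPAT day 5 replicate 2 (next 0.03) and -0.066 in combination day 2 replicate 2 (next 0.02). EPAT day 2 replicate 1 was also lowest of its group in the share of counts taken by the 94 genes, 0.865% (next 1.11%).

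Cox6b2 was 0.633 CPM in combination day 2 replicate 4 (next 1.08), and Ndufa4l2 was 1.08 CPM in anti-PD-1 day 2 replicate 4 (next 1.92). No member differed from vehicle without overlap in opposite directions on day 2 and day 5 (count 0).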

How the results depend on the processing

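The count of members called stayed 0 in each of the 15 comparisons under all alternatives, except as follows. DESeq2 called 1 in combination against vehicle on day 5 (Atp5a1, adjusted p = 0.0311), and leaving out 1 library gave 0 to 1 there, the 1 being Atp5a1 without vehicle day 5 replicate 3 (-0.41, edgeR adjusted p = 0.0401). Limma-voom with quality weights called 1 in combination against anti-PD-1 on day 2 (Ndufv3, 0.48, adjusted p = 0.0478), where it put 35 members at an unadjusted p under 0.05, 28 of them higher, beside 25.3% of all genes. Calls over all genes moved more: in combination against vehicle they were 72 on day 5 and 81 on day 2 with DESeq2 and 567 on day 2 with voom, which called 691 in combination against anti-PD-1 on day 2. Of 1053 alternative values of 45 named values, 5 reversed. Cox8b became -1.11 in anti-PD-1 against vehicle and 0.94 in the interaction on day 2 with the muscle covariate. Ndufa4l2 became -0.27 in combination against vehicle, -0.47 in combination against anti-PD-1 and -0.56 in the averaged EPAT effect on day 2 with voom. The cause of the Ndufa4l2 reversals was not tested.

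Replicate numbers showed no clear pairing of the libraries. Same-numbered libraries of different groups correlated at a mean r of 0.02 (133 pairs, 44 over 0.1). Those with different numbers correlated at a mean r of -0.005 (532 pairs, 149 over 0.1). Of 39 libraries 8 correlated best with their own number. Weak correlations cannot exclude a shared block. With the replicate block 0 members were called in all 15 comparisons, and those at an unadjusted p under 0.05 went from 12 to 19 in combination against vehicle (17.5% of all genes) and from 11 to 17 in combination against EPAT on day 5 (13.9%). Without the 3 libraries whose title number goes with the other day, 0 members were called in all 15 comparisons, and calls over all genes went from 4 to 2 in combination against vehicle and from 3 to 0 in combination against anti-PD-1 on day 5. Genes near 1 CPM are limited by depth.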
